A study of Homo sapiens with 24 samples.

Results

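The genes described here are 9 components of B cell receptor signalling: CD79A, CD79B, CD22, CD72, LYN, SYK, BTK, BLNK and PLCG2. They were taken by symbol from both deposited RNA-seq tables, and each was found as 1 row in the 48 h table of 61541 genes and as 1 row in the 72 h table of 19836 protein-coding genes. The 2 tables were made differently and are kept apart throughout. All 9 genes passed the filter on low values at both times.

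RNA was sequenced from U2932, an established human diffuse large B cell lymphoma line, after reagents directed at MYC. The PNA2 groups (genotype entry cmyc knockdown) received gPNA2, a gamma peptide nucleic acid, a DNA mimic whose bases hang on an amide backbone in place of sugar and phosphate, at a labelled dose of 8 mM whose unit is doubtful. The siRNA group (genotype entry cmyc knockdown) received 500 nM siRNA by electroporation, and the cell line entries of its libraries differ from U2932 in the last digit while the treatment text names U2932. The controls (genotype entry WT) received PBS. No electroporated control is named, so the siRNA comparison also contains the electroporation. There were 4 PNA2, 4 siRNA and 6 control libraries at 48 h, and 5 PNA2 and 5 control libraries at 72 h. The tissue entry reads bone marrow for all, all libraries come from 1 cell line, and nothing says that replicates are separate cultures, so p-values measure the spread between these libraries, which may be technical. The extraction text names 48 h alone, and the times used here are those of the titles and time entries.

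The B cell receptor is a membrane immunoglobulin held in a complex with the CD79A and CD79B chains, which carry the signal into the cell. When the receptor binds antigen, the SRC-family kinase LYN phosphorylates the tails of these chains, and the kinase SYK docks on them. SYK phosphorylates the adaptor BLNK, which brings the kinase BTK together with its substrate, the phospholipase PLCG2, and PLCG2 produces the messengers that open the calcium, NF-kB and RAS branches. CD22 and CD72 are membrane co-receptors that recruit the phosphatase PTPN6 and dampen the signal. Many diffuse large B cell lymphomas depend on this pathway for survival.

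The promoters of 3 of these genes are shown, those of CD79A because it was higher in all 3 comparisons with controls, and those of the inhibitory co-receptors CD22 and CD72 because their log2 changes with siRNA were the largest of the 9 in the fit reported. The sequences are from RefSeq (GRCh38.p14), run 5′ to 3′ from 250 bases before to 50 bases after the annotated start, and lie at chr19:41877029-41877328 on the plus strand for CD79A, chr19:35328937-35329236 on the plus strand for CD22 and chr9:35618364-35618663 on the minus strand for CD72. Capitals mark the letters GAGGAA, the core bound by the B cell and myeloid factor PU.1, on either strand.
CD79A: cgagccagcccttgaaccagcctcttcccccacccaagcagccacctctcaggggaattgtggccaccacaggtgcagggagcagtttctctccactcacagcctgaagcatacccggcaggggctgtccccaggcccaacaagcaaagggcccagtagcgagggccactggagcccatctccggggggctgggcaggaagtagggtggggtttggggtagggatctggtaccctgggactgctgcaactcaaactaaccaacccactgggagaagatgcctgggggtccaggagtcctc
CD22: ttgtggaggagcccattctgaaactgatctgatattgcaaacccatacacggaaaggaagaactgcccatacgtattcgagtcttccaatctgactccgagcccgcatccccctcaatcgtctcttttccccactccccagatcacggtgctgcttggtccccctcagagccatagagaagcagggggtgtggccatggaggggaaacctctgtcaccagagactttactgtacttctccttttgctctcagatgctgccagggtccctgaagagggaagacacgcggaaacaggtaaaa
CD72: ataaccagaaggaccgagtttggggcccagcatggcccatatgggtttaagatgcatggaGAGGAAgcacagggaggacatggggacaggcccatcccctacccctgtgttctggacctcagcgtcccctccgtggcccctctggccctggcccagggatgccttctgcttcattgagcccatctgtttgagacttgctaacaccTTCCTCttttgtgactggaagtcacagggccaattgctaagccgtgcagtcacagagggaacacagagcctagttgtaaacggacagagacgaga

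GAGGAA stood at -190 and, on the reverse strand, at -45 from the start of CD72, and it was not found in the windows shown for CD79A and CD22. It was also in at least 1 RefSeq promoter of SYK, BTK and PLCG2, and it was found in 27.9% of 35116 promoters of the same length. The E-box CACGTG, the letters bound by MYC with MAX, was searched on both strands as well and was in none of the promoters searched for these genes, against 7.26% of all promoters. The octamer ATTTGCAT, bound by OCT factors, was likewise in none on either strand, against 1.77% of all promoters. The promoters searched were those of CD79A, CD22, CD72, SYK, BTK, BLNK and PLCG2.

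MYC, the labelled target, was checked first, in values scaled for library size at 48 h and in normalized read counts at 72 h. With siRNA it stood at 3610, 3991, 4209 and 3632 at 48 h, below every control, and fell by 0.81 on the log2 scale (SE 0.105, adjusted p = 0.000318). With PNA2 at 48 h it stood at 7224, 7362, 7908 and 8960, against 7060, 7693, 5485 and 6793 in numbered controls and 7058 and 6069 in the unnumbered ones, a difference of 0.24 that did not pass the test (adjusted p = 0.096). At 72 h it stood between 459.9 and 2032 in PNA2 libraries and between 826.4 and 2845 in controls, with a difference of -0.18 (adjusted p = 0.794). MYC RNA thus went with the label in the siRNA libraries and showed no fall past the test in the libraries labelled PNA2.

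Library totals overlapped at 72 h and were higher with PNA2 than in controls at 48 h. At 48 h the sum of values in a library was 14.88 M to 16.03 M with PNA2, 12.63 M to 16.17 M with siRNA and 11.12 M to 14.46 M in controls, and the 72 h libraries held 11.25 M to 13.69 M reads with PNA2 and 8.22 M to 13.28 M in controls. The 48 h values had been adjusted by batch, and tied values in low genes placed 9 libraries in batch A, among them every siRNA library, PNA2 1 and 2, and controls 1, 2 and 4. Batch B held the other 5, namely PNA2 3 and 4, control 3 and the unnumbered controls, called u1 and u2 here, whose columns share one header. PNA2 replicate 2 at 48 h stood apart from its group. All 10 B cell markers checked (MS4A1, PAX5 and CD74 among them) were detected in every group. CD3D, CD2, GNLY, S100A8 and S100A9 were at 0 in every group, and the summed T and NK cell markers reached 472 at most, with TRAC the highest at 48 h and CD247 at 72 h. Of the stroma and epithelium markers, EPCAM was the highest in every group, with means of 199 to 241 at 48 h and 95.2 to 111 at 72 h. The summed myeloid markers reached 82.1 at most. The highest of these at 72 h were CD14 in controls (mean 23.6) and CD68 with PNA2 (mean 35.4).

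Of the 9 genes, 3 were higher and 0 lower with PNA2 at 72 h (CD79A, CD79B and LYN), in a comparison in which 23.8% of all 11985 genes tested passed, 12.1% higher and 11.7% lower. At 48 h PNA2 gave 1 higher (CD79A) and 2 lower (CD79B and SYK), where 16.7% of 14136 genes passed, 8.11% higher and 8.58% lower. The siRNA gave 5 higher (CD72, CD22, CD79A, CD79B and PLCG2) and 0 lower, where 17.4% passed, 9.3% higher and 8.13% lower. At an unadjusted p below 0.05 in limma, 0 of the 9 were lower with PNA2 at 72 h or with siRNA. Over all genes tested that threshold was passed by 19% higher and 18.9% lower with PNA2 at 72 h, 15.8% higher and 16.2% lower with PNA2 at 48 h, and 16.3% higher and 15.6% lower with siRNA. For PNA2 at 72 h, edgeR's quasi-likelihood test on the recovered reads also gave 3 higher and 0 lower at 72 h. Without PNA2 replicate 2, 2 were higher and 2 lower with PNA2 at 48 h, and 5 higher and 0 lower with siRNA, where all genes passed at 8.44% higher and 9.21% lower with PNA2, and at 16% higher and 14.6% lower with siRNA. The siRNA count was 1, CD72, without control 1, and 2 without control 2 or siRNA replicate 3. The median log2 change of the 9 genes was 0.14 with PNA2 at 72 h, -0.01 with PNA2 at 48 h and 0.34 with siRNA at 48 h, against -0.01, -0.002 and -0.001 over all genes tested. A call here means a Benjamini-Hochberg adjusted p below 0.05 over all genes of the table in a limma fit to log2(value + 1), so that the changes of low genes are understated. Both 48 h comparisons use the same 6 controls, and in bulk RNA more transcript per cell and more cells with the transcript cannot be told apart.

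Both signal chains of the receptor were higher with PNA2 at 72 h and with siRNA at 48 h, while with PNA2 at 48 h CD79A was higher and CD79B lower. CD79A (ENSG00000105369, chromosome 19, 41877120 to 41881372, plus strand, GRCh38 with GENCODE 29) was the most abundant of the 9 in every group and the only one higher in all 3 comparisons with controls. At 72 h it had 12208, 11381, 13436, 9676 and 9907 normalized counts in PNA2 libraries, against 7003, 6730, 6686, 6023 and 6634 in controls. Every PNA2 library lay above every control, as in 9.99% of all genes tested at 72 h. The means were 11322 ± 1579 with PNA2 and 6615 ± 360.7 in controls (SD, n = 5 each), and the log2 change was 0.77 (SE 0.09, 1.7-fold, adjusted p = 0.00048).

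At 48 h the scaled values of CD79A were 13768, 12719, 13891 and 13460 with PNA2, against 8576, 8739, 9946 and 11391 in controls 1 to 4 and 10381 and 9629 in u1 and u2. The groups again did not overlap, with PNA2 higher, as in 5.23% of all genes tested. The log2 change was 0.47 (SE 0.079, adjusted p = 0.00157), with 0.48 within batch A and 0.46 within batch B, and it passed under all 26 alternative settings (adjusted p 0.000153 to 0.031). Without PNA2 replicate 2 it was 0.49.

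With siRNA, CD79A had scaled values of 12242, 11965, 12371 and 11577, which also lay above all 6 controls, as in 8.72% of all genes tested. The log2 change was 0.34 (SE 0.088, adjusted p = 0.0165). Within batch A, which holds all siRNA libraries, it was 0.34, and with the batches aligned on their controls 0.33. The call was lost without control 1 (0.28, adjusted p = 0.0681) or control 2 (0.29, adjusted p = 0.0707). PNA2 exceeded siRNA by 0.13 (95% confidence interval -0.07 to 0.33, adjusted p = 0.355), which did not pass.

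CD79B (ENSG00000007312, chromosome 17, 63928740 to 63932354, minus strand) is the partner chain of CD79A. Its gene overlaps the same-strand gene AC127029.3. At 72 h it had 4979, 4647, 5714, 4138 and 3898 normalized counts with PNA2, against 3289, 3415, 3544, 3280 and 3140 in controls. The groups did not overlap, and the log2 change was 0.48 (SE 0.096, 1.391-fold, adjusted p = 0.00539).

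At 48 h the direction with PNA2 was the opposite. CD79B had scaled values of 2119, 1503, 2314 and 2129 with PNA2, against 2162, 2484, 2483 and 2514 in controls 1 to 4 and 3797 and 2986 in u1 and u2. PNA2 replicate 3 lay above control 1, so the groups overlapped, and the log2 change was -0.435 (SE 0.108, adjusted p = 0.0139), with -0.416 within batch A and -0.449 within batch B. Without PNA2 replicate 2 it was -0.34 (adjusted p = 0.0225). The call was lost when the libraries were not rescaled (-0.24, adjusted p = 0.232) and when only PNA2 and controls entered the fit (adjusted p = 0.0514). It was also lost in the fits within batch A (adjusted p = 0.0604) and within batch B (adjusted p = 0.15).

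With siRNA, CD79B stood at 3249, 3226, 3484 and 3071, above 5 of the 6 controls and below u1. It rose by 0.44 (SE 0.121, adjusted p = 0.0203), with 0.45 within batch A and 0.41 with the batches aligned. The call was lost without control 1 (0.39, adjusted p = 0.0726) or siRNA replicate 3 (0.42, adjusted p = 0.0527), and with no batch term (0.27, adjusted p = 0.21). The direct comparison of PNA2 with siRNA gave -0.88 (SE 0.13, adjusted p = 0.000267) and passed under all 25 alternatives.

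The ratio of CD79A to CD79B values was therefore higher with PNA2 at both times. At 72 h it was 2.43 ± 0.0835 with PNA2 and 1.99 ± 0.131 in controls (SD, n = 5 each), with a range of 2.34 to 2.54 with PNA2 and of 1.84 to 2.13 in controls. At 48 h it was 6.82 ± 1.11 with PNA2 and 3.7 ± 0.103 with siRNA (n = 4 each), against 3.66 ± 0.639 in controls (n = 6). The lowest PNA2 ratio at 48 h was 6.0, from replicate 3, and the highest control ratio was 4.53, from control 4. The ratio was chosen after the values of the 2 genes were known and was not tested, and its level differs between the 2 tables, which were made differently.

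**Figure D1:**
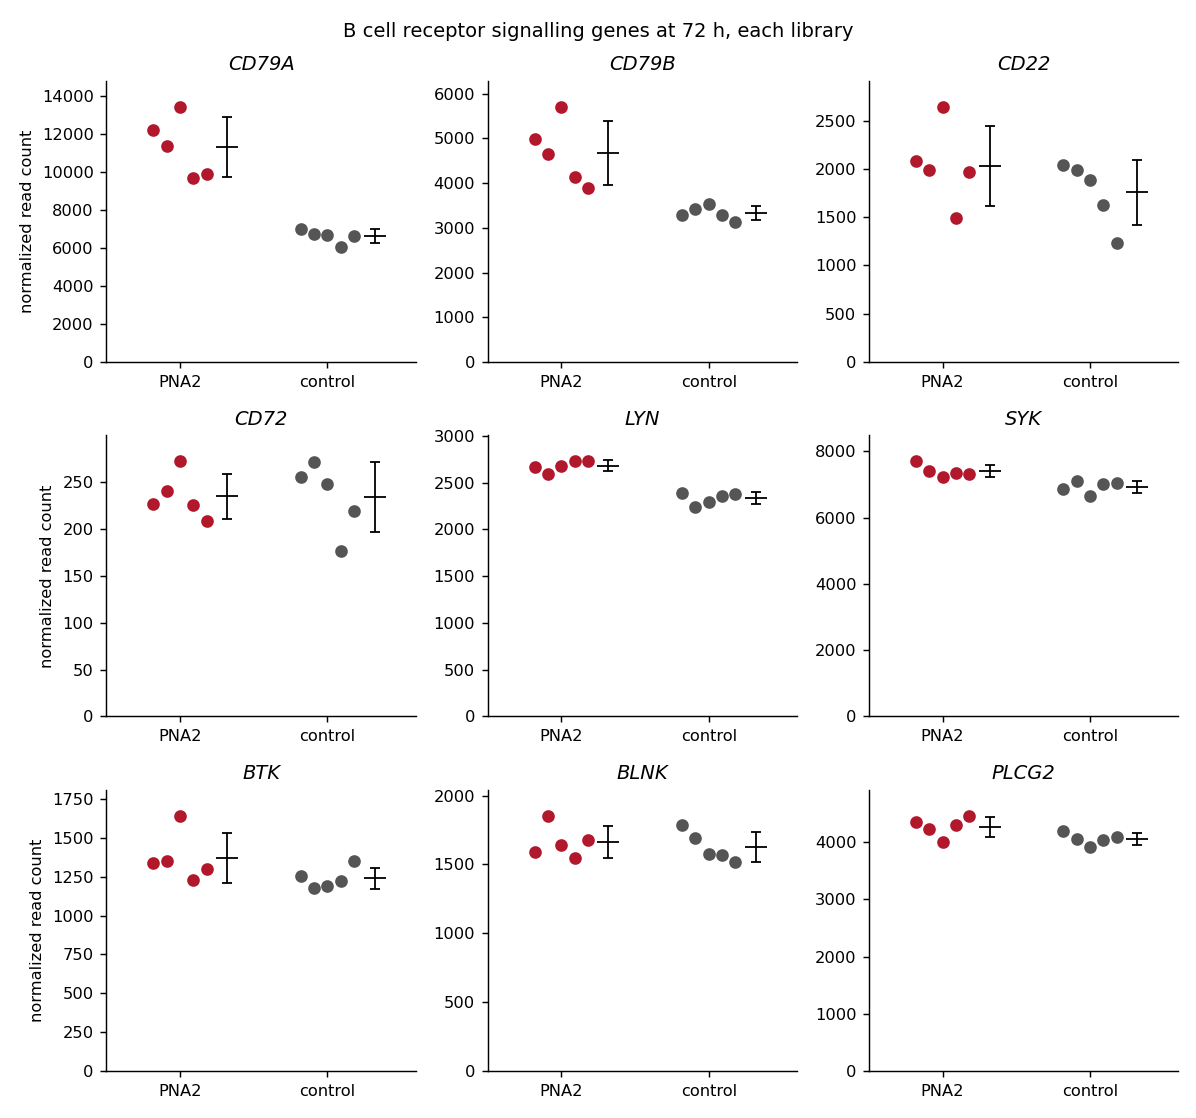
Normalized read count of each of the 9 genes in each 72 h library (y axis, from 0), with PNA2 left of control and the mean ± SD (n = 5) beside the points. CD79A, CD79B, LYN and SYK show no overlap between the groups, with PNA2 higher, as in 9.99% of all genes tested, and the other 5 genes overlap. Per kilobase of exon and per M reads, LYN and SYK overlap too.

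CD22 (ENSG00000012124, chromosome 19, 35319261 to 35347355, plus strand), the sialic acid-binding inhibitory co-receptor, had the largest standard error of the 9 in each comparison with controls. At 48 h its scaled values with PNA2 were 2777, 487, 2755 and 2587, with replicate 2 far below the others. Controls 1 to 4 had 1489, 1433, 2472 and 2556, and u1 and u2 had 2213 and 2313. The log2 change with PNA2 was -0.20 (SE 0.329, adjusted p = 0.709), with -0.597 within batch A and 0.20 within batch B. Without replicate 2 it was 0.37 (adjusted p = 0.0593), and with the batches also aligned on their controls it was 0.35 (adjusted p = 0.0443).

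With siRNA the scaled values of CD22 were 3403, 3578, 3406 and 3290, all above every control. The log2 change was 1.12 (SE 0.366, adjusted p = 0.0465), 0.96 within batch A and 0.84 with the batches aligned. The spread is shared by all 48 h groups, so PNA2 replicate 2 enters this standard error, and the call was lost in 15 of 25 alternatives, with an adjusted p of up to 0.204. With that library left out, siRNA gave 0.89 (adjusted p = 0.000124).

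At 72 h CD22 had 2083, 1986, 2647, 1490 and 1965 normalized counts with PNA2, against 2046, 1990, 1888, 1627 and 1235 in controls. The groups overlapped, and the difference of 0.21 did not pass (SE 0.163, adjusted p = 0.366). Between the reagents at 48 h, PNA2 differed from siRNA by -1.32 (SE 0.394, adjusted p = 0.0239), and of -0.51 without PNA2 replicate 2 (adjusted p = 0.0261). The comparison of PNA2 with siRNA called 23.9% of all genes, 11.5% higher and 12.4% lower.

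CD72 (ENSG00000137101, chromosome 9, 35609533 to 35646810, minus strand), the other inhibitory co-receptor, was the least abundant of the 9 genes in every group. It overlaps TESK1 on the opposite strand, and since it is not given whether the counting used strand, its values are uncertain. With siRNA its scaled values were 424.7, 512.9, 500.6 and 495.1, against 210.7, 219, 340.9 and 299.1 in controls 1 to 4 and 438.9 and 340.2 in u1 and u2. Only u1 reached the range of the siRNA libraries. The log2 change was 0.96 (SE 0.14, 1.946-fold, adjusted p = 0.000619), 1.00 within batch A and 0.84 with the batches aligned, and it passed in all 25 alternatives.

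With PNA2 at 48 h CD72 had scaled values of 345.8, 240.6, 394.9 and 371.6, within the range of the controls, and the difference of 0.16 did not pass (adjusted p = 0.412). At 72 h it had 226.3, 240.1, 272.1, 225.1 and 208.4 normalized counts with PNA2, against 254.8, 271.3, 247.6, 176.4 and 218.4 in controls, a difference of 0.01 (95% confidence interval -0.26 to 0.29, adjusted p = 0.945). PNA2 differed from siRNA by -0.80 (SE 0.15, adjusted p = 0.0014), a call lost with no batch term (-0.535, adjusted p = 0.071). Both inhibitory co-receptors thus had their highest values of the 48 h table in siRNA libraries.

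**Figure D2:**
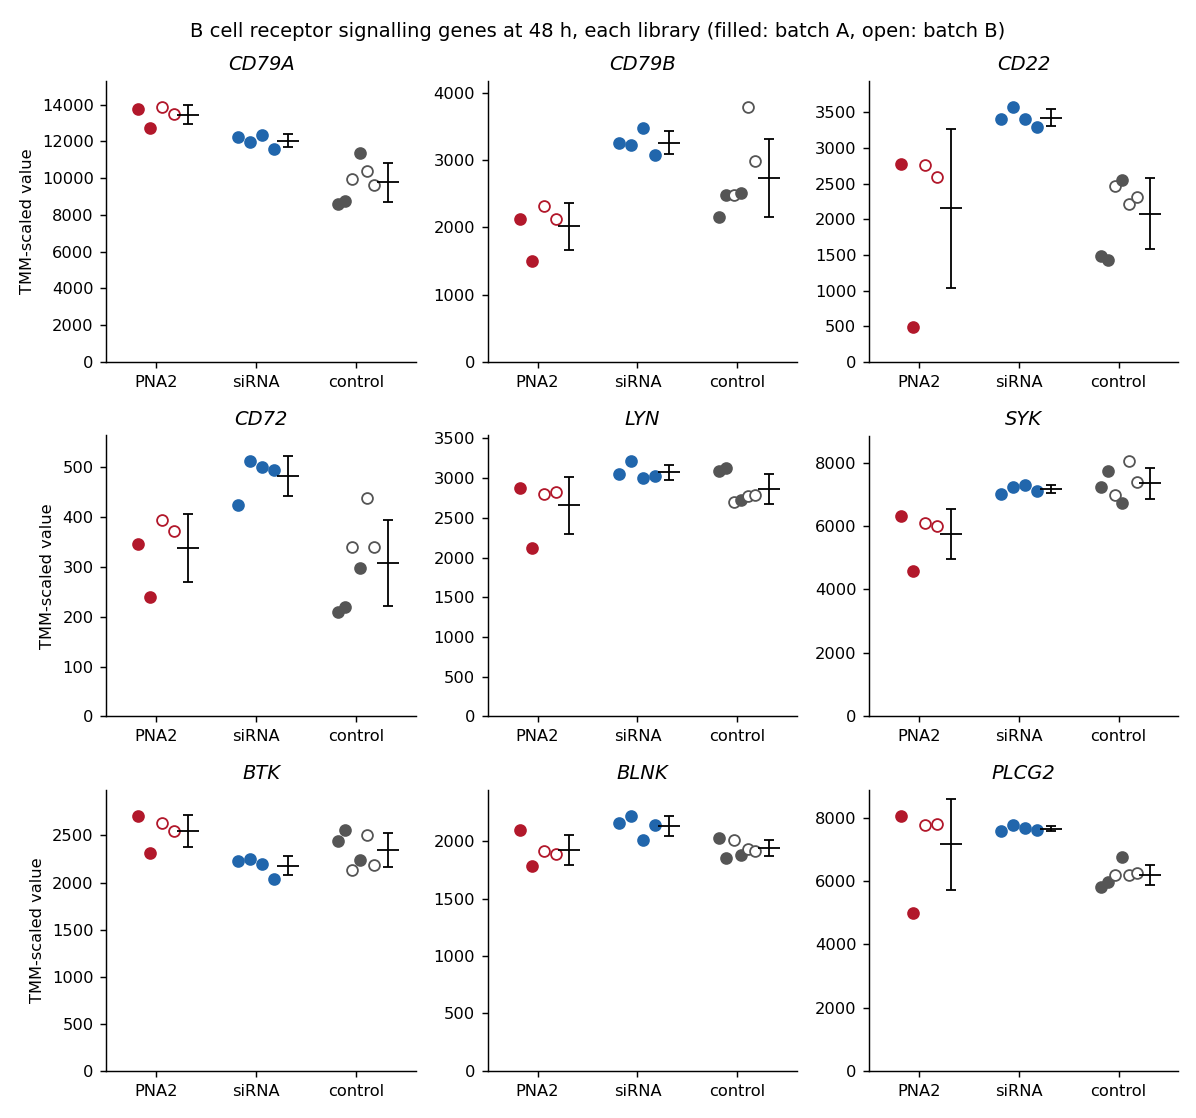
TMM-scaled value of each of the 9 genes in each 48 h library (y axis, from 0), with PNA2, siRNA and control from left to right, filled points for batch A, open points for batch B, and the mean ± SD (n = 4, 4 and 6). PNA2 replicate 2 is the low point of CD22 at 487 and of PLCG2 at 4990, and the siRNA libraries of CD22 lie above all other libraries.

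LYN (ENSG00000254087, chromosome 8, 55879813 to 56014168, plus strand), the SRC-family kinase at the head of the cascade, had a small and narrow difference at 72 h. It had 2672, 2589, 2674, 2731 and 2729 normalized counts with PNA2, against 2394, 2236, 2298, 2356 and 2377 in controls. The groups did not overlap in these counts, with PNA2 higher, as in 9.99% of all genes tested. Per kilobase of exon and per M reads they overlapped (34.0 to 37.8 against 32.1 to 34.6). In the fit LYN rose by 0.20 (SE 0.051, 1.149-fold, adjusted p = 0.0161). At 48 h it had scaled values of 2881, 2125, 2798 and 2819 with PNA2 and of 3050, 3214, 3002 and 3022 with siRNA, against 3091, 3124, 2698 and 2724 in controls 1 to 4 and 2772 and 2784 in u1 and u2. The differences from controls were -0.12 with PNA2 (adjusted p = 0.343) and 0.11 with siRNA (adjusted p = 0.467), and neither passed.

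SYK (ENSG00000165025, chromosome 9, 90801787 to 90898549, plus strand), the kinase that binds the phosphorylated CD79 tails, was lower with PNA2 at 48 h. Its scaled values were 6304, 4593, 6108 and 5987 with PNA2, against 7235, 7727, 6992 and 6713 in controls 1 to 4 and 8047 and 7392 in u1 and u2. All 4 PNA2 libraries lay below all 6 controls, as in 4.99% of all genes tested, and SYK fell by 0.36 on the log2 scale (SE 0.081, adjusted p = 0.00811), with -0.42 within batch A and -0.298 within batch B. With PNA2 replicate 2 left out, SYK stood at -0.26 (adjusted p = 0.00508). Without rescaling, the change was -0.16 (adjusted p = 0.374), in a setting that moved the median of all genes to 0.19. Within batch B alone the call was lost too (adjusted p = 0.0757).

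With siRNA, SYK had scaled values of 6998, 7240, 7300 and 7107, inside the range of the controls, and a difference of 0.01 (95% confidence interval -0.18 to 0.21, adjusted p = 0.938). PNA2 differed from siRNA by -0.38 (SE 0.098, adjusted p = 0.0111), a call lost without rescaling (-0.40, adjusted p = 0.0811). At 72 h SYK had 7709, 7415, 7221, 7336 and 7329 normalized counts with PNA2, against 6859, 7098, 6662, 7002 and 7044 in controls. Those groups did not overlap either, with PNA2 on the higher side, as in 9.99% of all genes tested. Per kilobase of exon and per M reads they overlapped (110 to 120 against 114 to 122). The difference of 0.09 in the fit did not pass (SE 0.047, adjusted p = 0.163).

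BTK (ENSG00000010671, chromosome X, 101349447 to 101390796, minus strand), the kinase that activates PLCG2, passed in no comparison with controls. Its scaled values at 48 h were 2712, 2318, 2628 and 2549 with PNA2 and 2234, 2253, 2193 and 2038 with siRNA, against 2131 to 2558 in controls. The difference with PNA2 was 0.12 (adjusted p = 0.23) and with siRNA -0.12 (adjusted p = 0.303). The direct difference of PNA2 from siRNA was 0.24 (SE 0.082, adjusted p = 0.0425), in a call that 18 of 25 alternatives lost. At 72 h BTK had 1227 to 1645 normalized counts with PNA2, against 1180 to 1351 in controls, a difference of 0.14 (adjusted p = 0.24).

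BLNK (ENSG00000095585, chromosome 10, 96191702 to 96271587, minus strand), the adaptor that SYK phosphorylates, passed in no comparison. It overlaps ZNF518A on the opposite strand. Its scaled values at 48 h ran from 1785 to 2096 with PNA2 and from 2008 to 2223 with siRNA, against 1850 to 2028 in controls, with a difference of -0.01 with PNA2 (adjusted p = 0.9) and of 0.14 with siRNA (adjusted p = 0.149). At 72 h it had 1550 to 1855 normalized counts with PNA2, against 1518 to 1785 in controls, a difference of 0.03 (95% confidence interval -0.13 to 0.19, adjusted p = 0.79).

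PLCG2 (ENSG00000197943, chromosome 16, 81739097 to 81962693, plus strand), the phospholipase at the end of this chain, had scaled values of 8064, 4990, 7751 and 7801 with PNA2 at 48 h. With siRNA it had 7582, 7780, 7655 and 7592. Controls 1 to 4 had 5813, 5963, 6193 and 6746, and u1 and u2 had 6189 and 6237. Every library of both reagents but PNA2 replicate 2 lay above all 6 controls.

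With siRNA PLCG2 rose by 0.37 (SE 0.116, adjusted p = 0.0388), by 0.31 within batch A and by 0.31 with the batches aligned, in a call lost in 15 of 25 alternatives. Without PNA2 replicate 2, which enters the shared spread, the siRNA change was 0.30 (adjusted p = 0.000499). With PNA2 the difference was 0.18 (SE 0.104, adjusted p = 0.238), and without replicate 2 it was 0.35 (adjusted p = 0.000251). At 72 h PLCG2 had 4007 to 4469 normalized counts with PNA2, against 3910 to 4192 in controls, a difference of 0.07 (adjusted p = 0.317).

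**Figure D3:**
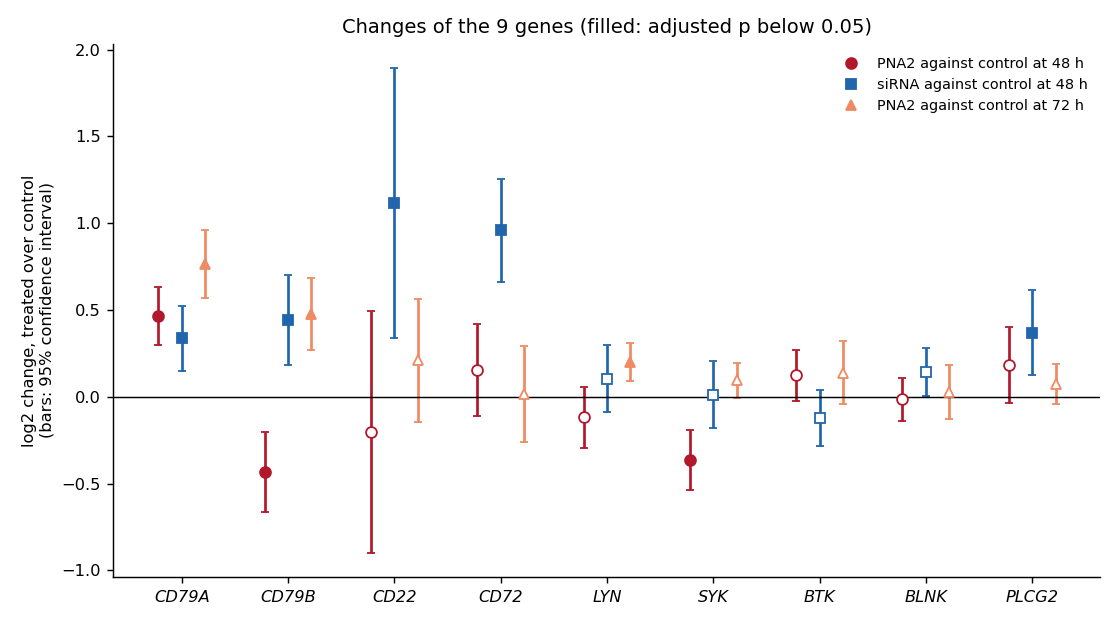
Log2 change against controls (y axis) of each gene (x axis) with PNA2 at 48 h, siRNA at 48 h and PNA2 at 72 h; bars are 95% confidence intervals and filled symbols have an adjusted p below 0.05. CD79A is the one gene with filled symbols in all 3 comparisons, and CD22 has the widest intervals at 48 h.

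Side by side, the log2 changes with PNA2 were 0.48 at 72 h and -0.435 at 48 h for CD79B, and 0.09 at 72 h and -0.36 at 48 h for SYK. CD79A was higher at both times, by 0.77 at 72 h and 0.47 at 48 h. The tables have different units, and no test between them was made.

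Levels were compared between genes per kilobase of exon and per M reads or value units. In the 72 h table CD79A averaged 616 ± 67.8 with PNA2 and 394 ± 20.4 in controls (SD, n = 5 each), and it was followed by CD79B (184 ± 23.2 with PNA2 and 144 ± 6.06 in controls) and SYK (116 ± 4.31 with PNA2 and 119 ± 3.12 in controls). These 3 levels did not overlap within either group. In these units, unlike in normalized counts, PNA2 and control libraries overlapped for SYK (110 to 120 against 114 to 122). They also overlapped for LYN (34.0 to 37.8 with PNA2 against 32.1 to 34.6 in controls). On that scale the next 5 genes lay close together. With PNA2 they were BLNK at 37.3, LYN at 35.5, CD22 at 27.0, PLCG2 at 26.1 and BTK at 24.5, each overlapping the next. In controls they were BLNK at 39.9, LYN at 33.8, PLCG2 at 27.1, CD22 at 25.5 and BTK at 24.3, and the last 3 overlapped. CD72 was lowest, at 5.67 with PNA2 and 6.18 in controls.

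In the 48 h table CD79A averaged 610 ± 15.4 per kilobase per M with PNA2 and 583 ± 16 with siRNA (n = 4 each), against 462 ± 54.5 in controls (n = 6). CD79B ranked 2 with siRNA (114 ± 5.73) and 3, with overlap, behind SYK with PNA2 (65.8 for CD79B and 74.9 for SYK) and in controls (93.3 for CD79B and 100 for SYK). CD22 ranked 8 with PNA2 (23.5 ± 11.9), 6 with siRNA (40.4 ± 1.33) and 8 in controls (24.0 ± 6.16). CD72 was last in each group, at 6.78 with PNA2, 10.4 with siRNA and 6.47 in controls.

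Likeness of pattern was measured at 72 h as the mean absolute difference in log2(value + 1) over the 10 libraries, each gene centred on its own mean, among 9605 genes. The nearest gene was SH3BGRL3 for CD79A (0.0385), GNB2 for CD79B (0.028), DEF6 for CD22 (0.0852), DPH1 for CD72 (0.05) and MCUB for LYN (0.0292). It was STAU1 for SYK (0.0251), STXBP2 for BTK (0.0371), EIF2A for BLNK (0.0452) and PPP1R16B for PLCG2 (0.0312). The 10 libraries carry the PNA2 difference and their depth in common.

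Transcript length and base composition moved with the 72 h comparison. The quartile of genes with the shortest transcripts had a median log2 change of 0.22 with PNA2 and the quartile with the longest -0.17, while the quartile with the lowest GC content had -0.20 and the highest 0.13. CD79A and CD79B are short and GC-rich (1258 bases with 60.7% GC and 1269 bases with 60.0% GC in the longest transcript). Genes in their quartiles of length and GC had a median change of 0.28, and 29.9% of them were called higher. LYN, with 5808 bases and 45.7% GC, lay in quartiles whose median was -0.13, and 2.98% of genes there were called higher.

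After removing the trend with length and GC from each library, the 72 h change was 0.48 for CD79A (adjusted p = 6.05e-05), 0.19 for CD79B (adjusted p = 0.0132) and 0.33 for LYN (adjusted p = 0.00566), and PLCG2 passed too, at 0.20 (adjusted p = 0.0193). The summed level of the 10 B cell markers, CD79A and CD79B among them, was 71300 to 88900 with PNA2 and 56300 to 64000 in controls at 72 h, with CD74 the highest. Its part in the change of CD79A was not tested. At 48 h the length quartiles differed little in median with PNA2, from -0.02 to 0.03, and the highest GC quartile had -0.05. The share called lower differed more. It was 5.54% in the shortest and 11.4% in the third length quartile, and 5.16% in the lowest and 14.4% in the highest GC quartile. In the quartiles of length and GC that hold SYK, 13.7% of genes were called lower, and 9.19% in those of CD79B.

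**Figure D4:**
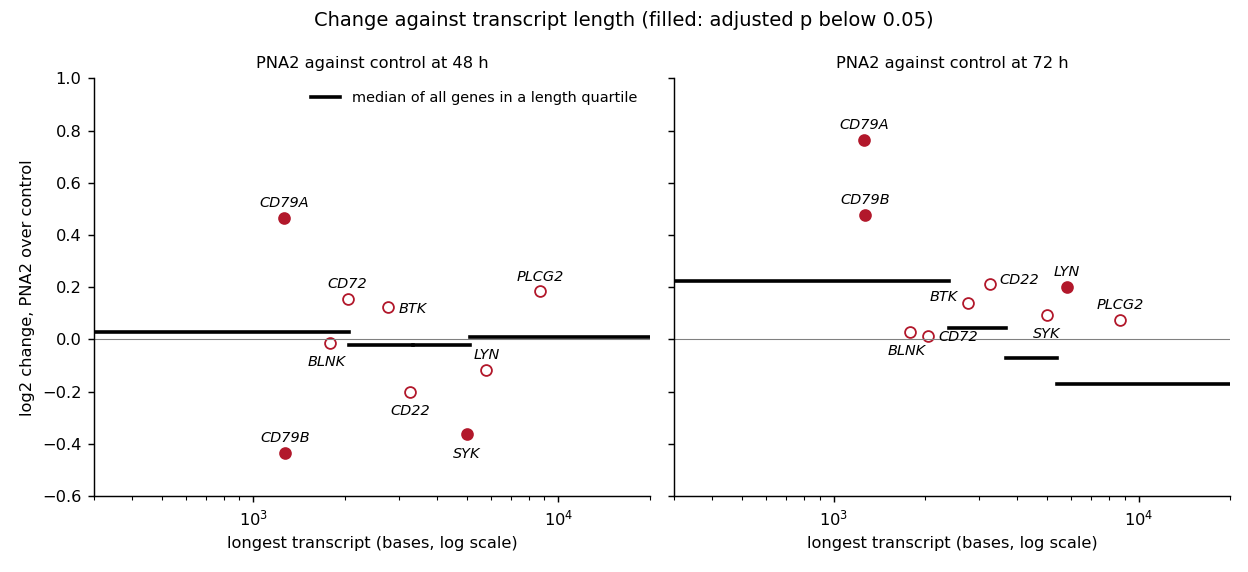
Log2 change with PNA2 against controls (y axis) by length of the longest transcript (x axis, log scale) for the 9 genes at 48 h and 72 h; black lines are medians of all genes in each quartile of length, and filled points have an adjusted p below 0.05. At 72 h the lines step down from 0.22 to -0.17 and all 9 genes but BLNK and CD72 lie above their line.

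The rest of the pathway was read from a list of 117 genes in 8 roles, of which 111 were tested at 48 h and 106 at 72 h. With PNA2 at 72 h 15 were higher and 14 lower, 27.4% of those tested against 23.8% of all genes. With PNA2 at 48 h 15 were higher and 14 lower, 26.1% against 16.7%. With siRNA 29 were higher and 3 lower, 28.8% against 17.4%, and the median log2 change of the list was 0.18. Without PNA2 replicate 2, 27 were higher and 12 lower with PNA2, and 47 higher and 6 lower with siRNA, against the shares of all genes given above for that setting.

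The receptor's own immunoglobulin chains were measured at 48 h alone, in a role of 6 genes that also holds JCHAIN. With siRNA 4 of the 6 were higher and 1 lower. Of all genes tested, 9.3% were higher and 8.13% lower with siRNA, and 8.11% higher and 8.58% lower with PNA2 at 48 h. IGHM, the heavy chain of membrane IgM, changed by 0.62 (adjusted p = 0.0244), IGKC, the kappa light chain, by 0.535 (adjusted p = 0.0182) and JCHAIN, which joins secreted IgM, by 0.62 (adjusted p = 0.0148). With PNA2 1 of the 6 was higher, IGHD, the IgD heavy chain, with 219.1 ± 29.2 (n = 4) against 141.5 ± 29.7 in controls (n = 6) as deposited and a change of 0.45 (adjusted p = 0.028). The lambda constant genes IGLC2 and IGLC3, near-identical copies whose reads the counting could split, were lower with PNA2 by the fit (-0.825 and -0.91), and IGLC3 also with siRNA (-0.59). The call of IGHD was kept in 17 of 26 alternatives and that of IGLC3 with siRNA in 13 of 25. JCHAIN alone of the 6 was tested at 72 h, where it changed by 0.23 with PNA2 and was not called. It has a neighbour on the opposite strand.

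Of the inhibitory receptors, which act beside CD22 and CD72, 5 of 10 tested were higher with siRNA and 0 lower, and at an unadjusted p below 0.05 in limma 6 were higher and 0 lower. Of all genes tested with siRNA, 9.3% were higher and 8.13% lower, or 16.3% and 15.6% at that unadjusted p. The 5 called were the Fc receptor-like proteins FCRL2 (1.335, adjusted p = 0.00926), FCRL3 (0.96, adjusted p = 0.0296) and FCRL5 (0.99, adjusted p = 0.00443), the sialic acid-binding SIGLEC10 (1.24, adjusted p = 0.00405) and CEACAM1 (2.07, adjusted p = 0.0137). CEACAM1 was low, at 65.5 ± 4.93 as deposited with siRNA (n = 4) and 27.6 ± 14.2 in controls (n = 6). Its lowest control stood at 6.72, and both means were below the 100 set for named genes. With aligned batches the change of FCRL2 was 0.97. FCRL5 averaged 2718 ± 303.4 as deposited with siRNA (n = 4) and 1516 ± 482.3 in controls (n = 6). SIGLEC10 was higher with PNA2 as well, at 1.40 at 48 h (adjusted p = 0.00109) and 0.62 at 72 h (adjusted p = 0.0159). FCRL3 was lower with PNA2 at 48 h (-0.88, adjusted p = 0.0287), with -1.679 in batch A alone and -0.08 in batch B alone. With PNA2 replicate 2 left out it was -0.46. SIGLEC10, FCRL3 and CEACAM1 have opposite-strand neighbours and are uncertain.

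In the role that joins phosphatases with negative regulators, 8 of 17 genes were higher with PNA2 at 48 h and 0 lower, with a median log2 change of 0.30. At an unadjusted p below 0.05 in limma 10 were higher and 3 lower, and without PNA2 replicate 2 the adjusted counts were 9 and 0. Of all genes tested with PNA2 at 48 h, 8.11% were higher and 8.58% lower, or 15.8% and 16.2% unadjusted. Without PNA2 replicate 2 the adjusted shares were 8.44% and 9.21%. CBLB, a ubiquitin ligase that limits receptor signalling, averaged 1089 ± 144.5 with PNA2 (n = 4) and 579.9 ± 56 in controls (n = 6) as deposited, without scaling for depth. Its change in the fit was 0.705 (SE 0.078, adjusted p = 9.12e-05). PTPN22, a phosphatase of SRC-family kinases, changed by 0.645 (adjusted p = 0.000567). PTPRC, the CD45 phosphatase, and INPP5D, the lipid phosphatase SHIP1, changed by 0.42 and 0.30. The groups of CBLB and of PTPN22 did not overlap, and both genes were also above siRNA, by 0.48 for CBLB and 0.64 for PTPN22. At 72 h 4 of the 17 were higher and 2 lower, against 12.1% higher and 11.7% lower of all genes tested. PTPN6, the phosphatase that CD22 and CD72 recruit, was then at 977.5 ± 179.9 with PNA2 and 689.5 ± 53.2 in controls (n = 5 each), a change of 0.49 (adjusted p = 0.0118). PTPN22 and PTPRC have neighbours on the opposite strand.

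Among co-receptors, TNFRSF13B, the TACI receptor, was lower with PNA2 at both times. At 48 h it averaged 992.0 ± 73.3 with PNA2 (n = 4) and 1344 ± 213.6 in controls (n = 6) as deposited, without scaling for depth. Its change in that fit was -0.62 (adjusted p = 0.000171). At 72 h it averaged 536.5 ± 86.7 with PNA2 and 748.9 ± 71.7 in controls (n = 5 each), a change of -0.49 (adjusted p = 0.0112). CD81, a tetraspanin co-receptor, was higher at 72 h, at 5833 ± 807.2 with PNA2 and 4172 ± 69.3 in controls, a change of 0.47 (adjusted p = 0.00297), and overlaps a gene on the opposite strand.

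Adaptors and exchange factors were higher with siRNA in 9 of 20 genes and lower in 0, and at an unadjusted p below 0.05 in limma in 13 and 0. Of all genes tested with siRNA, 9.3% were higher and 8.13% lower, or 16.3% and 15.6% at that unadjusted p. BANK1, a scaffold that binds LYN, changed by 1.53 (adjusted p = 0.00746), or 1.09 with aligned batches. As deposited, and so not scaled for depth, it averaged 362.3 ± 60.4 with siRNA (n = 4) and 167.6 ± 53.2 in controls (n = 6). RASGRP1, an exchange factor for RAS, changed by 1.28 (adjusted p = 0.000101). At 72 h RASGRP3, the related exchange factor, was lower with PNA2, at 1551 ± 176.1 against 2263 ± 168.4 in controls (n = 5 each), a change of -0.55 (adjusted p = 0.00202). All 3 have opposite-strand neighbours.

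Kinases other than LYN, SYK and BTK changed in few cases, with 0 higher and 1 lower of 15 with PNA2 at 48 h, 2 higher and 1 lower of 15 with siRNA, and 1 higher and 0 lower of 17 with PNA2 at 72 h. At an unadjusted p below 0.05 in limma the PNA2 counts were 0 and 2 at 48 h and 3 and 2 at 72 h, and without PNA2 replicate 2 the adjusted counts were 2 and 0 with PNA2 and 7 and 1 with siRNA at 48 h. All genes tested passed at 8.11% higher and 8.58% lower with PNA2 at 48 h, and 9.3% and 8.13% with siRNA. At 72 h the shares were 12.1% and 11.7%. Unadjusted, PNA2 gave 15.8% and 16.2% at 48 h and 19% and 18.9% at 72 h. Without PNA2 replicate 2 the adjusted shares were 8.44% and 9.21% with PNA2 and 16% and 14.6% with siRNA. AKT2 changed by -0.275 with siRNA (adjusted p = 0.0152).

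In the calcium, NFAT and RAS branch downstream of PLCG2, PNA2 at 72 h gave 7 higher and 7 lower of 26 genes. Of all genes tested at 72 h, 12.1% were higher and 11.7% lower. MAPK3, the ERK1 kinase, was higher at 72 h (0.57, adjusted p = 0.0017) and at 48 h (0.43, adjusted p = 0.0021). At 72 h ORAI1, the pore of the store-operated calcium channel, changed by 0.53 (adjusted p = 0.00504) and the GTPase RAC2 by 0.45 (adjusted p = 0.0105). The calcium sensor STIM2 was lower at 72 h (-0.57, adjusted p = 0.000802) and at 48 h (-0.47, adjusted p = 0.0174, and -0.27 without PNA2 replicate 2), and the calcium release channel ITPR3 (-0.47, adjusted p = 0.00112) and the phospholipase PLCG1 (-0.44, adjusted p = 0.00586) were lower at 72 h. STIM2, ITPR3 and PLCG1 have opposite-strand neighbours.

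In the branch that leads to NF-kB, IKBKB, the kinase of the inhibitor of NF-kB, was lower with PNA2 at 72 h, at 523.9 ± 29.9 with PNA2 and 795.4 ± 64 in controls (n = 5 each), a change of -0.60 (adjusted p = 0.000714). With siRNA at 48 h CHUK, its partner kinase, was lower (-0.25, adjusted p = 0.0206), and it has an opposite-strand neighbour.

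**Figure D5:**
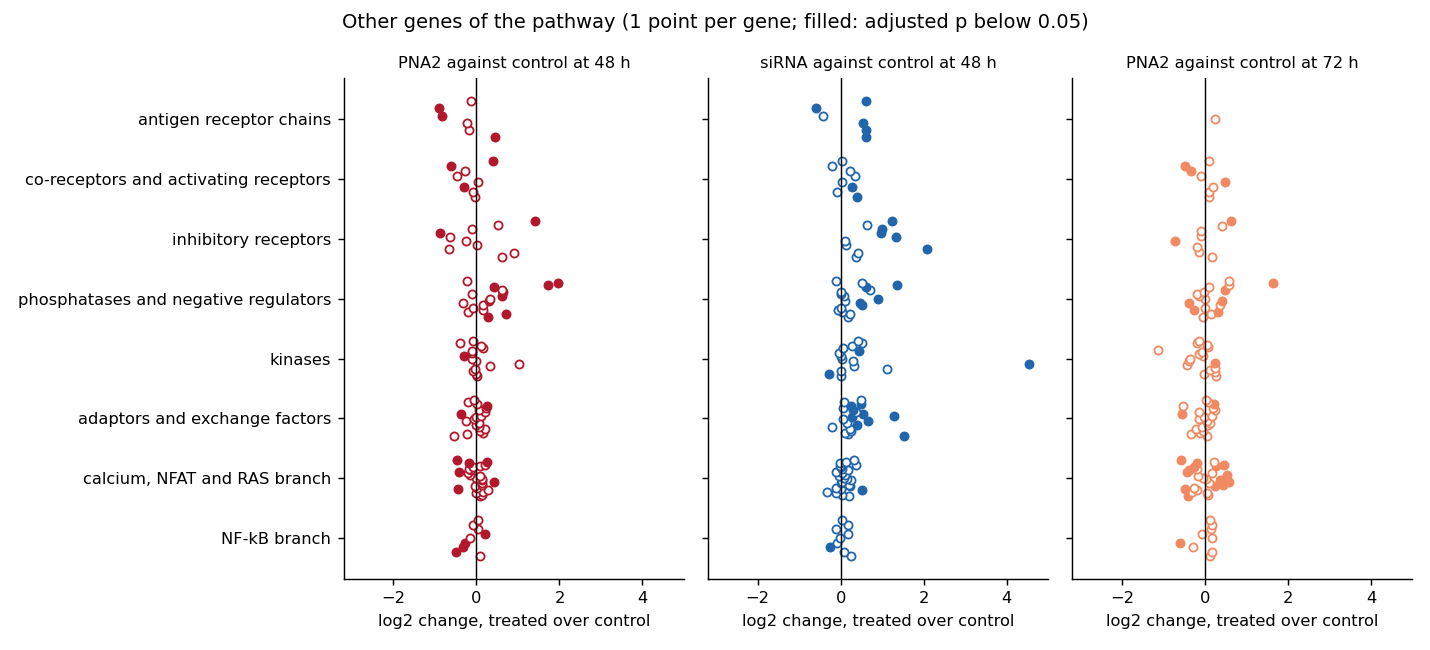
Log2 change against controls (x axis) of the other genes of the pathway, 1 point per gene, by role (y axis), with PNA2 at 48 h, siRNA at 48 h and PNA2 at 72 h; filled points have an adjusted p below 0.05. The filled points of the inhibitory receptors with siRNA, and of the phosphatases and negative regulators with PNA2 at 48 h, all lie on the higher side.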

How the data were processed

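Libraries were grouped by their titles and treatment entries. The submitters' processing notes name Trimmomatic, HISAT2 2.2.1, SAMtools 1.7, HTSeq 0.11.0, DESeq2 and the build GRCh38, and whether strand was used in counting is not given in the sources used here. At 72 h the authors deposited a normalized signal, read counts divided by a size factor per library. Undoing that division left whole reads in 100% of values, to within 0.01. At 48 h the authors deposited other values, counts adjusted per gene and batch and not scaled for depth, as read from the table: 21877 genes are not whole numbers, 5099 have a value below 0, and the means of the 2 batches differ by a median of 3.89% of the gene's mean. All siRNA libraries are in 1 batch, so this adjustment can move part of an siRNA change into the controls of that batch, and a fit in which controls of both batches were first set to one mean (called aligned) is given beside such results.

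For the 48 h fit, negative values were replaced by 0, libraries were scaled by TMM (edgeR 4.0.16), and log2(value + 1) was fitted with group and batch over all 14 libraries by limma 3.58.1 with a mean-variance trend (R 4.3.3). The 72 h fit used the deposited values and group alone. Genes needed a value of 10 in 4 libraries at 48 h or in 5 at 72 h. Tests were two-sided, with Benjamini-Hochberg adjustment over all genes tested, and the fits were tested on simulated data. Positions and lengths are from GENCODE 29.

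The named genes are the 9, MYC, up to 6 called pathway genes per direction and comparison with a group mean of 100 or more, and the nearest gene in pattern to each of the 9. A few genes that this rule names are not reported here. IGHM, IGKC, JCHAIN, CEACAM1, PTPRC, INPP5D and, with siRNA, FCRL3 were named after their values were seen. The members and lists were chosen with earlier results of these data known. Alternatives were other scalings, no filter, a pseudocount of 10, no batch term, fits within batches or of only the compared groups, the replicate number as a block, each library left out and, at 72 h, edgeR's quasi-likelihood test on the recovered reads. Removing the trend with length and GC, and leaving out PNA2 replicate 2 with aligned batches, were added after seeing the data.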

Additional observations from a re-analysis of the deposited data

Results flagged for a closer look

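PNA2 replicate 2 at 48 h stood far below the other 3 libraries of its group for CD22, with a scaled value of 487, for LYN, with 2125, and for PLCG2, with 4990. These were 3 of 45 groups checked, where chance gives about 1 in 20. CD22 without this library was 0.37 above controls (adjusted p = 0.0593), and PLCG2 was 0.35 above (adjusted p = 0.000251).

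The change with PNA2 differed from the change with siRNA at 48 h for 5 of the 9 genes, by the contrast of the groups in the limma fit (adjusted over all genes). That contrast called 23.9% of all 14136 genes tested, 11.5% higher and 12.4% lower. The difference, PNA2 minus siRNA, was -0.878 for CD79B, -1.316 for CD22, -0.804 for CD72, -0.376 for SYK and 0.243 for BTK. The siRNA was electroporated and PNA2 was not, and the 2 cannot be told apart from the reagent.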

How the results depend on the processing

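At 72 h CD79A, CD79B and LYN passed in all 16 alternatives, and the count of the 9 genes called ranged from 3 to 3 over the libraries left out and was 3 with the replicate block. At 48 h, 3 of the 9 passed with PNA2, 1 when not rescaled or with the replicate block, 6 without PNA2 replicate 2 and with aligned batches. CD22, at -0.20 in the fit reported, was then 0.347. With siRNA 5 passed: 2 with no batch term, 3 with no filter, 2 with the replicate block, 3 within batch A and 7 (6 higher and 1 lower) without PNA2 replicate 2 and with aligned batches. Leaving out 1 library gave 1 (control 1) to 5 (control 4, PNA2 1 or 2), with 2 without control 2 or siRNA 3 and 3 without u1, u2, PNA2 3 or 4, or siRNA 1, 2 or 4. The share of all genes passing without PNA2 replicate 2 and with aligned batches is not given here. Over the settings with a library left out, that setting included, genes called ran from 1216 to 5354 with siRNA. With PNA2 they ran from 1752 to 3145, both of 14136 tested. Between reagents 5 of the 9 passed: 3 with no batch term, not rescaled, with only the 2 groups or within batch A, 2 with the replicate block, and 3 (without siRNA 2) to 5 with 1 library left out.

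Of the pathway list, 29 passed with PNA2 at 48 h, against 16 with only the 2 groups, 14 with the replicate block, 19 within batch A and 18 within batch B, and 22 (without control 2) to 44 (without PNA2 1) with 1 library left out. With siRNA 32 passed, against 12 with no batch term, 49 not rescaled, 52 with only the 2 groups, 15 with the replicate block and 55 without PNA2 replicate 2 and with aligned batches. Leaving out 1 library gave 15 (control 2) to 53 (PNA2 2), with 21 without control 1 or siRNA 2 and 20 without siRNA 1 or 4. Between reagents 38 passed, and 22 when not rescaled. The MYC difference with PNA2 at 48 h passed when not rescaled (0.435, adjusted p = 0.0213), in a setting that moved the median of all genes to 0.194, and without PNA2 replicate 2 with aligned batches (0.282, adjusted p = 0.0371). It ran from 0.152 to 0.29 with 1 library left out. The causes were not tested.

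Same-numbered libraries did not deviate together in every pair (correlations -0.0648 to 0.297 between PNA2 and controls at 48 h). These correlations cannot settle whether the numbers pair the samples, so the replicate block is given as an alternative. Not every library correlated best with its own number. Between PNA2 and controls at 48 h, replicates 1 and 4 did and 2 and 3 did not. Between PNA2 and siRNA, replicates 1, 2 and 3 did (0.0837, 0.0281 and 0.0502) and 4 did not (-0.00611). With the replicate block, the calls lost were those of CD79B (-0.302, adjusted p = 0.14) and SYK (-0.352, adjusted p = 0.0866) with PNA2 at 48 h. They were CD79A (0.309, adjusted p = 0.103), CD22 (1.011, adjusted p = 0.134) and PLCG2 (0.344, adjusted p = 0.136) with siRNA, and CD22 (-1.309, adjusted p = 0.0904), SYK (-0.378, adjusted p = 0.0897) and BTK (0.216, adjusted p = 0.194) between reagents.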
